A study of Danio rerio with 15 samples.

Results

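The comparison described here is between zebrafish larvae exposed to tefluthrin at 2.3 µM and untreated larvae. It was chosen by the treatment label and takes 6 of the 15 libraries of the series, 3 from each group. All larvae were wild-type animals of the NHGRI-1 strain, a laboratory line of zebrafish (Danio rerio), collected whole and pooled at 72 h post fertilisation. The exposed larvae had been kept in tefluthrin from 48 h to 72 h post fertilisation, after hatching. The controls are labelled untreated, and the labels do not say whether they were given a solvent. The other groups, of 3 libraries each, were larvae exposed over the same period to tefluthrin at 60 nM or to acetochlor at 780 nM or 7.8 µM; they entered the model and are quoted where a value is set beside them. For the higher tefluthrin group the column headers read nM where the sample labels and the series text read µM, and the labels were followed. The number of larvae in a pool is not given in the sources used here. Because the labels do not say that the pools came from separate clutches, the p-values measure the spread between these pools, which may be technical. The values are from whole animals, so that fewer cells of a type and less RNA per cell cannot be told apart.

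Tefluthrin is a pyrethroid insecticide used mainly against soil insects. Pyrethroids bind voltage-gated sodium channels of nerve and muscle and slow their closing, which prolongs the inward sodium current and leads to repetitive firing. Fish are known to be sensitive to this class of compound. At the age studied, the larval liver, gut and pancreas are forming and the animal still lives on its yolk, and the series title places the study under metabolic disruption.

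The deposited files give an estimated read count for each Ensembl transcript and pair no transcript with a gene. Of 64995 transcript identifiers, 0 were found in the gene name table and 0 in the RefSeq gene table used for names. Results are therefore given per transcript. The identifiers printed are those of the 2 transcripts that rose and the 2 that fell with the smallest p-values, and the other transcripts are described by their direction, abundance and rank. No gene function, pathway or tissue marker could be attached to any of them, and the labelled tissue could not be checked against its markers.

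Control libraries held 19886430 to 24576528 estimated counts and exposed libraries 18246025 to 18940850. Between 40212 and 41513 transcripts were above 0 in a control library and between 39557 and 39817 in an exposed library. Levels are given as CPM, read counts scaled to a common library size, after TMM scaling, a scaling that sets the bulk of transcripts to no net change between libraries. In the fit over all libraries, 35865 transcripts passed the filter on low counts and were tested.

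Exposure to 2.3 µM tefluthrin was accompanied by many changes of small size in both directions. A transcript is said to be called, or to have risen or fallen, at an edgeR adjusted p-value under 0.05. By that rule 10688 of 35865 transcripts (29.8%) were called. They were 5181 with higher levels (14.4%) and 5507 with lower levels (15.4%). In 2662 of them the absolute log2 fold change was under 0.5, and in a further 4558 it lay between 0.5 and 1. Changes of at least 1 made up 3468 (9.67% of the tested). Of these, changes of 1 to 2 were found for 2622 called transcripts, changes of 2 to 4 for 607 and changes of 4 or more for 239. The last count depends on how a transcript at 0 in 1 group is treated. In 209 called transcripts all libraries of 1 group were at or under a floor of 3 counts, the control libraries in 83 and the exposed libraries in 126. With these set to that floor, 108 transcripts had a change of 4 or more, 83 higher and 25 lower.

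Transcripts were divided into abundance classes by their mean CPM over the 6 libraries. The share called rose with abundance. It was 5.48% of 7788 transcripts under 1 CPM, 26.2% of 16341 at 1 to 10 CPM and 49.8% of 10458 at 10 to 100 CPM. At 100 to 1000 CPM it was 59.8% of 1136 transcripts, and at 1000 CPM or more 69% of 142. The precision of the fitted changes, which takes in counting error and the spread between libraries, moved with these shares. The median standard error of the log2 fold change fell from 0.999 under 1 CPM to 0.267, 0.116, 0.0909 and 0.0876 in the higher classes, and its part in the shares was not tested. When a log2 fold change of at least 1 was also required, the shares followed no such order: 5.44%, 11.7%, 9.36%, 13% and 6.34% from the lowest class to the highest.

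The direction of change differed between the abundance classes, and in some of them it turned with the processing. Of the called transcripts, 37.9% were higher under 1 CPM (162 higher and 265 lower) and 41.4% at 1 to 10 CPM (1768 and 2506). At 10 to 100 CPM 52.6% were higher (2741 and 2469), at 100 to 1000 CPM 64.1% (435 and 244), and at 1000 CPM or more 76.5% (75 and 23). Medians of the log2 fold change over all tested transcripts of a class followed the same order. They were -0.08, -0.05, 0.02, 0.12 and 0.25, from the lowest class to the highest, against -0.02 over all 35865 transcripts. With transcripts at the floor set to their bound, the median was -0.09 in the lowest class and the same as above in the others. Library totals as scaling gave medians of -0.115 at 10 to 100 CPM and -0.0117 at 100 to 1000 CPM, with 36.2% and 48.5% of calls higher. Under 1 CPM the direction was not settled: limma voom gave 66.4% of calls higher and whole estimates alone 50.7%. The class median was -0.00496 without control replicate I and 0 without control replicate III. Without those replicates 37143 and 37086 transcripts passed the filter, against 35865 in the main fit, so these medians cover different sets of transcripts. The 139 transcripts of the lowest class with both groups at or under the floor were left out of that bounded median.

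**Figure D1:**
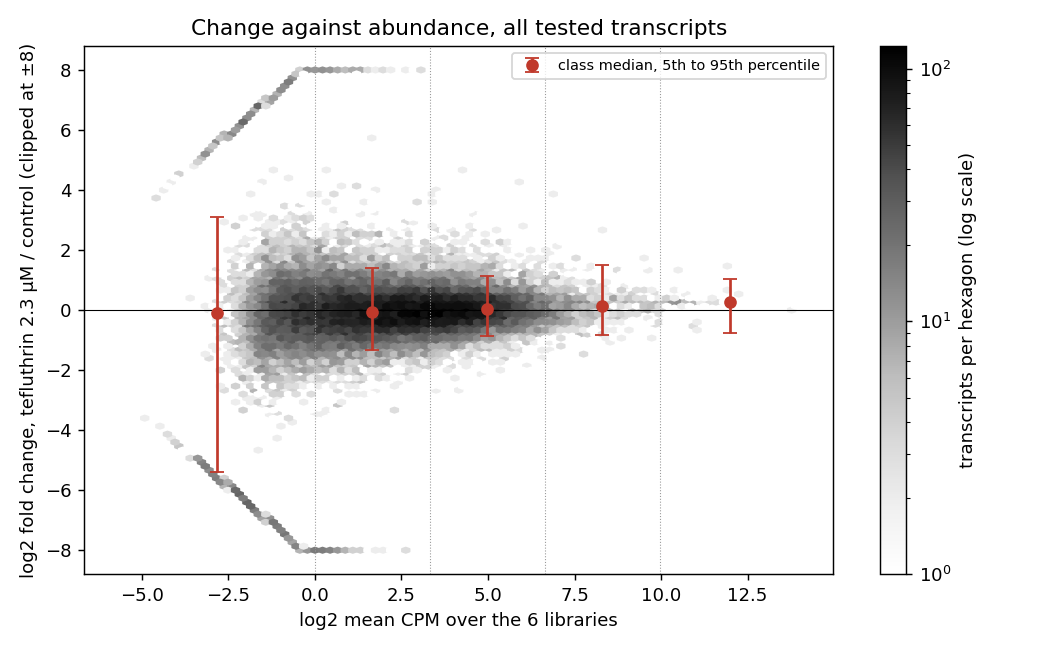
The log2 fold change of each tested transcript (vertical axis, tefluthrin 2.3 µM over control) is plotted against its log2 mean CPM over the 6 libraries (horizontal axis), with the number of transcripts in each hexagon as grey on a log scale; dotted lines part the abundance classes, and 130 tested transcripts at 0 in all 6 libraries are not drawn. Red points are class medians, which rise from -0.08 under 1 CPM to 0.25 at 1000 CPM or more, and red bars span the 5th to the 95th percentile; the diagonal streaks and the rows at ±8 hold transcripts at or near 0 in 1 group, whose fitted change depends on the prior count.

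Since these classes were cut on control and 2.3 µM libraries, libraries of the other groups could not be set against them on equal terms. The classes were therefore cut again on the mean CPM over all 15 libraries, an alternative chosen after the data had been seen. The median log2 fold change at 2.3 µM was then -0.01 under 1 CPM, -0.05 at 1 to 10 CPM, 0.00108 at 10 to 100 CPM, 0.09 at 100 to 1000 CPM and 0.24 at 1000 CPM or more. The share of calls that were higher was 51.5% under 1 CPM and rose from 43.5% at 1 to 10 CPM to 50.3%, 61.2% and 72.7% in the classes above. With these classes the direct comparison of 2.3 µM with 60 nM gave medians from -0.05 under 1 CPM to 0.4 at 1000 CPM or more, where 73 of 87 called transcripts were higher at 2.3 µM. Against the same controls the medians in the highest class were -0.15 at 60 nM, -0.17 at acetochlor 7.8 µM and -0.04 at acetochlor 780 nM.

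A measure in which a library's scaling factor nearly cancels was taken within each library: the median log2 CPM of the transcripts of 100 to 1000 CPM minus that of the transcripts of 1 to 10 CPM. The classes were cut on TMM-scaled CPM, and the distance was not recomputed under other scalings. This distance was 5.68, 5.75 and 5.62 in control libraries I, II and III and 5.89, 5.88 and 5.87 in the exposed libraries. All 3 exposed libraries lay above all 3 controls, by a mean of 0.2 (two-sided exact permutation p = 0.1, the smallest that 3 against 3 libraries allow). With classes cut on all 15 libraries the distance was 5.74, 5.79 and 5.7 in control and 5.94, 5.91 and 5.91 in exposed libraries (p = 0.1, exact permutation test), and the 9 other libraries lay between 5.64 and 5.8, under every exposed one. Between the classes of 1000 CPM or more and 1 to 10 CPM the distance was 8.91, 9.0 and 8.79 in control and 9.11, 9.15 and 9.01 in exposed libraries. There the lowest exposed library lay just above the highest control. With classes cut on all 15 libraries the groups overlapped, at 9.05, 9.13 and 8.94 against 9.18, 9.2 and 9.09 (p = 0.2, exact permutation test).

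The make-up of the libraries changed in the same sense. The transcripts of 100 to 1000 CPM held 28.5%, 28.8% and 28.2% of the counts of the control libraries and 29.5%, 29.2% and 29.4% of the exposed libraries, a difference of 0.882 percentage points (two-sided exact permutation p = 0.1). Those of 1 to 10 CPM held 6.59%, 6.35% and 6.85% in control and 5.86%, 5.85% and 6.03% in exposed libraries (p = 0.1, exact permutation test), and those of 10 to 100 CPM fell by 1.2 points (p = 0.1, exact permutation test). In each of these 3 classes the groups did not overlap. At 1000 CPM or more the shares were 35.0%, 35.6% and 34.9% in control and 36.4%, 36.8% and 35.5% in exposed libraries, so that the groups overlapped (p = 0.2, exact permutation test). The 10 most abundant transcripts together held 10.4% ± 0.0799 of the counts in control (SD, n = 3) and 10.4% ± 0.17 in exposed libraries.

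**Figure D2:**
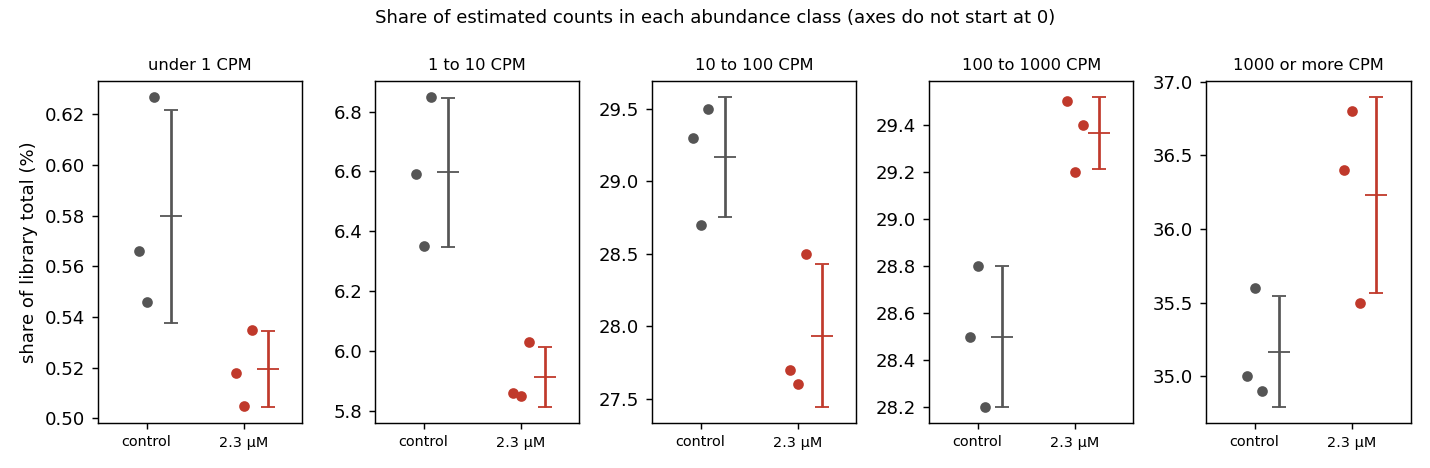
Each panel shows the share of a library's estimated counts (vertical axis, percent, not starting at 0) held by an abundance class in the control and tefluthrin 2.3 µM libraries; points are libraries I to III and bars are mean ± SD (n = 3). The exposed libraries lie under the controls in the 3 lower classes and above them at 100 to 1000 CPM, and the groups overlap at 1000 CPM or more.

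To see how much of the RNA pool this involved, the share of counts that would have to be moved between transcripts to turn one library into another was summed. It was 15.4% to 17.1% over the 9 pairs of a control and an exposed library, 4.2% to 5.8% over the 3 pairs of controls and 4.69% to 5.77% over the 3 pairs of exposed libraries. The difference between the groups was thus about as large in every pair and above every distance within a group. Between the group means, 21262 transcripts gained 15.5 points in sum and 28459 lost the same amount. The 10 largest gains made up 18.7% of the total gain, and 136 transcripts made up 50% of it. Losses were spread more widely, with 16.3% in the 10 largest and 260 transcripts for 50%.

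The largest gain of share was in the transcript ranked 5th by abundance, at 8448, 7645 and 8466 CPM in control libraries I, II and III and 15602, 15093 and 15717 CPM in the exposed libraries. Its share of the counts went from 0.823% to 1.42%, and its log2 fold change was 0.92 (SE 0.161, edgeR adjusted p = 0.000903). Exposed libraries were tightly grouped and well above the controls. The largest loss was in the transcript 6th by abundance, with 11145, 11143 and 9980 CPM in control and 7045, 6613 and 5018 CPM in exposed libraries (log2 fold change -0.79, SE 0.172, edgeR adjusted p = 0.00385). The estimates of both were fractional in at least 1 library, as happens where reads are divided between transcripts.

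The most abundant transcript of all, with whole estimates in every library, had 15838, 16308 and 15162 CPM in control and 16815, 16926 and 16782 CPM in exposed libraries. Its log2 fold change of 0.09 did not pass the test (SE 0.0743, edgeR adjusted p = 0.389), although the groups did not overlap. Of 35865 transcripts, 16382 (45.7%) had 3 exposed libraries all on 1 side of the 3 controls, and 10548 of these were among the 10688 called.

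The 2 transcripts with the smallest p-values among those that rose differed in how they stood at the lower concentration. ENSDART00000170934.2 had 10.8, 11.5 and 11.8 CPM in control libraries and 165, 172 and 197 CPM in exposed libraries, which is 3.97 on the log2 scale (SE 0.106, edgeR adjusted p = 1.45e-09). At tefluthrin 60 nM it stood at 185, 188 and 153 CPM, and the direct comparison of the concentrations gave a log2 difference of 0.02 (SE 0.0918, edgeR adjusted p = 0.922). The libraries of the 2 concentrations overlapped, and every one was far above the highest control. The estimates of this transcript were not whole in all libraries. At acetochlor 7.8 µM it had 16.5, 14.9 and 14.7 CPM, above every control but not called (edgeR adjusted p = 0.215).

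ENSDART00000099528.4 had 28.6, 28.7 and 29.2 CPM in control and 109, 113 and 119 CPM in exposed libraries. Its level rose by a log2 of 1.98 (SE 0.0558, edgeR adjusted p = 1.45e-09), and its estimates were whole in all libraries. At 60 nM it was intermediate, with 79.4, 74.0 and 75.2 CPM, and it was higher at 2.3 µM than at 60 nM (log2 difference 0.58, SE 0.0536, edgeR adjusted p = 2.65e-05). Acetochlor 7.8 µM libraries, at 30.6, 32.0 and 29.1 CPM, did not pass the test against control (edgeR adjusted p = 0.833).

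Of the transcripts that fell, those with the smallest p-values were both lowest at 2.3 µM and intermediate at 60 nM. ENSDART00000113097.4 had 24.5, 23.6 and 23.7 CPM in control, 12.9, 14.2 and 14.9 CPM at 60 nM and 5.61, 6.03 and 6.13 CPM at 2.3 µM. Against control it changed by a log2 of -2.01 (SE 0.0787, edgeR adjusted p = 1.11e-08) and against 60 nM by -1.24 (edgeR adjusted p = 1.41e-06). ENSDART00000105427.4 had 46.7, 46.5 and 47.2 CPM in control, 29.0, 25.7 and 27.2 CPM at 60 nM and 18.6, 18.9 and 18.8 CPM at 2.3 µM. It changed by a log2 of -1.32 (SE 0.0546, edgeR adjusted p = 1.25e-08), with a difference of -0.54 between the concentrations (edgeR adjusted p = 4.95e-05). In neither did any library of 1 group overlap with another of these 3 groups. Both had a fractional estimate in at least 1 library. At acetochlor 7.8 µM they stood at 18.9, 17.0 and 17.3 CPM and at 37.8, 39.0 and 37.3 CPM. These libraries lay under every control, but neither transcript was called against control (edgeR adjusted p = 0.055 and 0.0623).

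The largest changes were then taken within each abundance class, in each direction, from called transcripts whose groups did not overlap and whose higher group had a mean of at least 10 counts. Of these, the 2 largest with whole estimates in all 15 libraries and the largest with a fractional estimate are described. At 1000 CPM or more the largest rises with whole estimates were modest. The leading transcript with whole estimates had 872, 846 and 829 CPM in control and 2009, 1946 and 2137 CPM in exposed libraries, which is 1.26 on the log2 scale (SE 0.0901, edgeR adjusted p = 7.41e-07). At 60 nM it stood at 1193, 1195 and 1102 CPM, between control and 2.3 µM, and it differed from the latter by a log2 of 0.8 (edgeR adjusted p = 9.79e-05). The exposed libraries were all more than 2 times the highest control.

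The second had 944, 988 and 929 CPM in control and 1686, 1665 and 1574 CPM in exposed libraries (log2 fold change 0.78, SE 0.13, edgeR adjusted p = 0.000614). At 60 nM it had 970, 959 and 1154 CPM and was not called against control (edgeR adjusted p = 0.688), while the concentrations differed (log2 0.68, edgeR adjusted p = 0.00324). The leading rise with fractional estimates was larger, from 801, 860 and 896 CPM to 3582, 3181 and 3420 CPM (log2 fold change 1.99, SE 0.213, edgeR adjusted p = 1.99e-05). At 60 nM it stood at 2025, 1640 and 2085 CPM, between control and 2.3 µM, and was called against control (edgeR adjusted p = 0.0018). One acetochlor 780 nM library also stood high for it, at 1506 CPM against 766 and 773 CPM in the other 2.

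Among the falls at 1000 CPM or more, both leading transcripts with whole estimates were lower at 2.3 µM and near control at 60 nM. The first had 5046, 5189 and 5146 CPM in control, 5084, 5203 and 5351 CPM at 60 nM and 2552, 2870 and 2906 CPM at 2.3 µM. Its log2 fold change was -0.89 (SE 0.0786, edgeR adjusted p = 4.4e-06). Against 60 nM it differed by -0.91 (edgeR adjusted p = 1.46e-05). The second fell from 2470, 2550 and 2517 CPM to 1384, 1555 and 1482 CPM (log2 fold change -0.77, SE 0.0871, edgeR adjusted p = 3.15e-05), with 2407, 2259 and 2572 CPM at 60 nM.

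The leading fall with fractional estimates in that class was as low at 60 nM as at 2.3 µM. It went from 1990, 2123 and 1843 CPM in control to 634, 638 and 508 CPM (log2 fold change -1.74, SE 0.16, edgeR adjusted p = 5.65e-06), and stood at 443, 624 and 761 CPM at 60 nM. The concentrations differed by a log2 of -0.04 (SE 0.156, edgeR adjusted p = 0.919), and their libraries overlapped.

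In the class of 100 to 1000 CPM the largest rise was close to control at the lower concentration. This transcript, with fractional estimates, had 3.09, 1.84 and 1.98 CPM in control, 4.44, 6.72 and 2.33 CPM at 60 nM and 530, 345 and 524 CPM at 2.3 µM. Its log2 fold change was 7.65 (SE 0.417, edgeR adjusted p = 1.08e-07). Against 60 nM it was higher by 6.7 (SE 0.395, edgeR adjusted p = 7.63e-07). Exposed libraries at 2.3 µM stood far above every other library, the acetochlor libraries at 7.8 µM having 5.66, 6.57 and 2.81 CPM.

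Its companions with whole estimates rose at both concentrations. The first had 5.81, 5.12 and 7.94 CPM in control, 65.2, 66.7 and 64.5 CPM at 60 nM and 281, 235 and 254 CPM at 2.3 µM (log2 fold change 5.34, SE 0.294, edgeR adjusted p = 1.14e-07). At acetochlor 7.8 µM it had 19.2, 25.2 and 9.74 CPM, above the controls in 3 of 3 libraries but not called (edgeR adjusted p = 0.0668). The second went from 14.0, 15.6 and 13.1 CPM to 97.6, 92.8 and 89.5 CPM at 60 nM and 237, 182 and 229 CPM at 2.3 µM (log2 fold change 3.93, SE 0.157, edgeR adjusted p = 1.12e-08). For both, no library of 1 of these 3 groups overlapped with another.

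**Figure D3:**
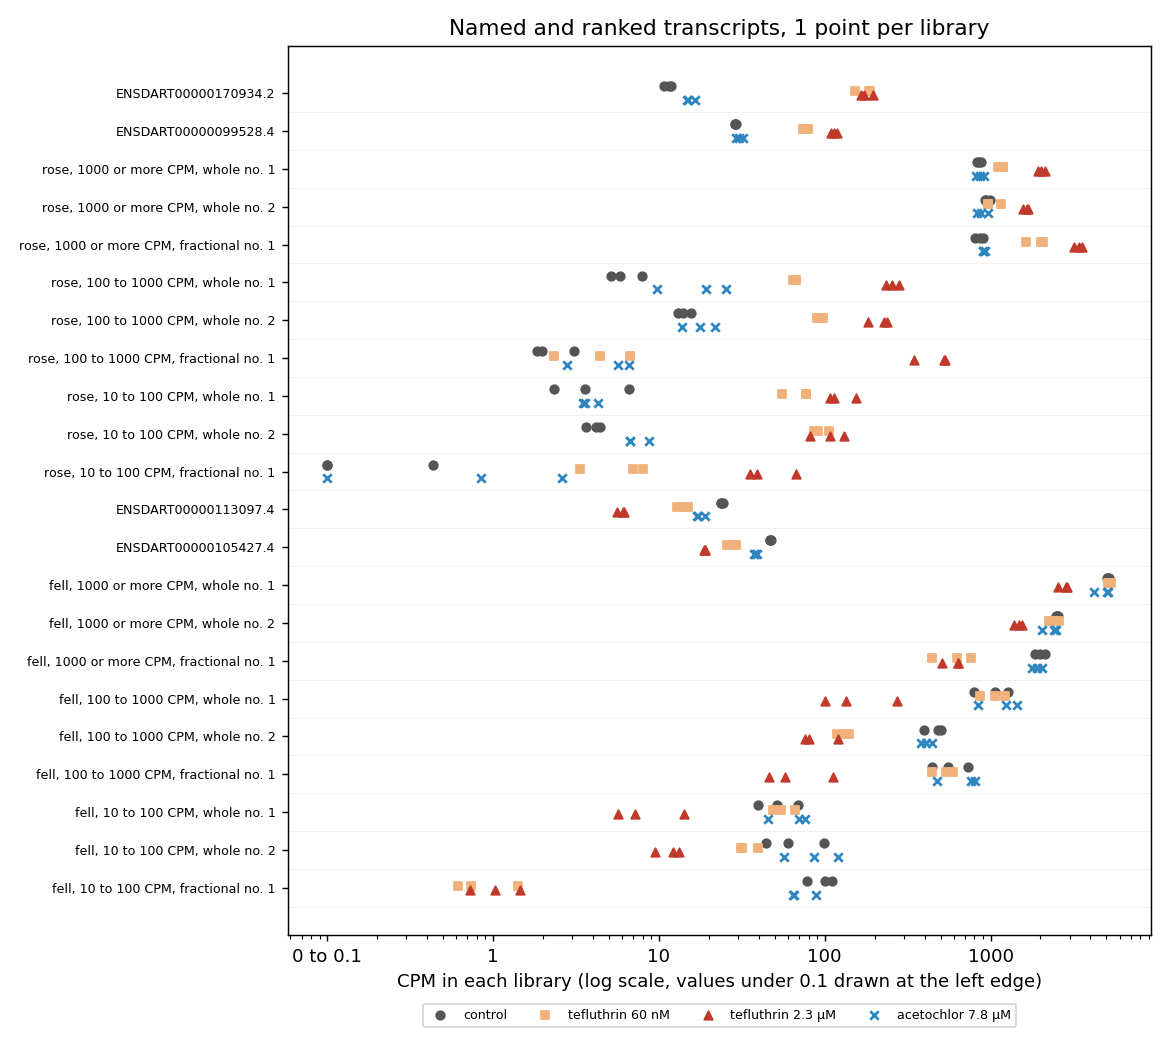
CPM on a log axis (horizontal, values under 0.1 at the left edge) in each library of control, tefluthrin 60 nM, tefluthrin 2.3 µM and acetochlor 7.8 µM for the 4 named transcripts and for the largest changes in the 3 higher abundance classes, 1 row per transcript and 1 point per library. The red triangles at 2.3 µM stand apart from the grey control circles in every row, because only transcripts without overlap of these groups were taken. The 60 nM squares lie with the controls in some rows, between control and 2.3 µM in others, and with the 2.3 µM libraries in others again.

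The largest falls at 100 to 1000 CPM varied widely among the controls. A transcript with whole estimates had 1058, 794 and 1276 CPM in control libraries I, II and III and 135, 100.5 and 274 CPM in exposed libraries I, II and III (log2 fold change -2.62, SE 0.401, edgeR adjusted p = 0.000331). A transcript with fractional estimates had 554, 446 and 729 CPM in control and 57.9, 46.2 and 113 CPM in exposed libraries (log2 fold change -2.99, SE 0.371, edgeR adjusted p = 6.42e-05). In the class of 10 to 100 CPM, the leading fall with whole estimates had 51.7, 39.8 and 68.6 CPM in control and 7.13, 5.67 and 14.1 CPM in exposed libraries (log2 fold change -2.57, SE 0.366, edgeR adjusted p = 0.000194).

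These 3 transcripts shared the order of libraries in both groups: III was the highest and II the lowest. None of the 3 was called at 60 nM, where all had their highest level in library I and their lowest in III. Their levels at 60 nM were 1226, 1071 and 866 CPM, 592, 539 and 445 CPM, and 66.3, 54.6 and 48.5 CPM. The concentrations differed in each of them, by a log2 of -2.63, -2.86 and -2.65 (edgeR adjusted p = 0.000726, 0.000251 and 0.000408).

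Other falls of these classes did not follow that pattern in both groups. The second with whole estimates at 100 to 1000 CPM fell from 483, 503 and 399 CPM to 80.5, 121 and 75.9 CPM (log2 fold change -2.32, SE 0.189, edgeR adjusted p = 2.1e-06) and stood at 118, 140 and 135 CPM at 60 nM. At 10 to 100 CPM the second with whole estimates went from 59.7, 44.5 and 99.0 CPM to 9.53, 13.2 and 12.2 CPM (log2 fold change -2.54, SE 0.33, edgeR adjusted p = 9.34e-05). Its controls had the same order, with III highest and II lowest, but its exposed libraries did not. The largest fall of that class, with fractional estimates, was from 101, 110.2 and 78.0 CPM in control to 1.46, 0.724 and 1.03 CPM (log2 fold change -6.48, SE 0.305, edgeR adjusted p = 3.35e-08), and it was equally low at 60 nM, at 0.732, 0.611 and 1.41 CPM.

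Rises at 10 to 100 CPM were larger than the falls with whole estimates in the same class. The first had 2.33, 3.58 and 6.59 CPM in control and 108, 113 and 154 CPM in exposed libraries (log2 fold change 4.89, SE 0.353, edgeR adjusted p = 7.99e-07). The second had 4.2, 4.4 and 3.61 CPM in control and 81.0, 107 and 131 CPM in exposed libraries (log2 fold change 4.71, SE 0.271, edgeR adjusted p = 1.44e-07). Both were also high at 60 nM, with 77.5, 76.6 and 55.3 CPM and 90.7, 106 and 86.2 CPM, and neither concentration was called different from the other (edgeR adjusted p = 0.0617 and 0.666). The leading rise with fractional estimates had 0, 0 and 0.437 CPM in control and 67.5, 35.3 and 39.0 CPM in exposed libraries (edgeR adjusted p = 0.000148); limma voom gave an adjusted p of 0.0738, and over the alternatives the adjusted p ran from 5.46e-05 to that value.

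Under 10 CPM many of the largest changes were from or to 0. A rise with whole estimates at 1 to 10 CPM was at 0 in the 3 controls and at 12.3, 13.5 and 14.5 CPM in exposed libraries, at least 99.3-fold higher when the controls were set to a floor of 3 counts per library. Its edgeR adjusted p of 0.022 rose above 0.05 without control replicate I, II or III in turn, up to 0.0564. DESeq2 gave no adjusted p for this rise. The leading fall with whole estimates went from 16.5, 17.7 and 13.4 CPM to 0 in the 3 exposed libraries, at least 90.1-fold lower (edgeR adjusted p = 0.00779; limma voom 0.564, the highest over the alternatives, which began at 3.99e-06).

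These transcripts were exact complements over the series. In each of the 15 libraries exactly 1 of the pair was above 0, and their summed level was 11.7 to 18.1 CPM with a median of 14.1 CPM. The rising transcript was the one present in 7 libraries: all 6 with tefluthrin and acetochlor 7.8 µM replicate I. The falling one was present in the 3 controls, in the 3 acetochlor 780 nM libraries and in acetochlor 7.8 µM replicates II and III. The library of acetochlor 7.8 µM replicate I thus stood with the tefluthrin libraries for this pair.

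The second changes with whole estimates at 1 to 10 CPM were smaller in level than this pair. The second rise with whole estimates at 1 to 10 CPM had 2 counts in the controls together and 222 in the exposed libraries, a ratio of 146 with a 95% counting interval of 39.8 to 1210 (edgeR adjusted p = 0.00023). It reached 7.07, 2.96 and 2.98 CPM at 2.3 µM and 0.523, 0.444 and 0.271 CPM at 60 nM. The second fall with whole estimates at 1 to 10 CPM went from 2.77, 1.84 and 1.87 CPM to 0.234, 0.241 and 0.172 CPM (log2 fold change -3.29, SE 0.483, edgeR adjusted p = 0.000246).

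Both leading transcripts with fractional estimates at 1 to 10 CPM were at 0 in 1 group. The rise had 0 counts in control and 28.0, 6.88 and 17.2 CPM in exposed libraries, at least 128-fold higher (edgeR adjusted p = 0.0247), yet it was above 0 in all 3 acetochlor 780 nM libraries and in acetochlor 7.8 µM replicates I and III. Its call was lost with limma voom (adjusted p = 0.446, the highest over the alternatives) and without any 1 control replicate or exposed replicate I. The fall was from 7.92, 23.4 and 8.1 CPM to 0, at least 74.7-fold lower (edgeR adjusted p = 0.00874, limma voom 0.53). It was also at 0 in acetochlor 7.8 µM replicate I, with 9.63 and 4.08 CPM in replicates II and III. At 60 nM it stood at 19.4, 2.33 and 2.38 CPM.

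Under 1 CPM the leading rises with whole estimates were at 0 in control and at 1.05, 1.33 and 2.69 CPM and 1.29, 1.27 and 1.15 CPM in exposed libraries, at least 12.5-fold and 9.09-fold higher (edgeR adjusted p = 0.000805 and 0.00318). The leading falls with whole estimates each had 43 counts in the controls together and 1 in the exposed libraries, a ratio of 0.0305 with a 95% counting interval of 0.000755 to 0.179 (edgeR adjusted p = 0.00186 and 0.00648). For the second of these limma voom gave an adjusted p of 0.1. The leading transcripts with fractional estimates were at 0 in control in the rise, at least 14.6-fold higher (edgeR adjusted p = 0.0388), and at 0 in exposed libraries in the fall, at least 11.2-fold lower (edgeR adjusted p = 0.00821). Both lost their call with limma voom (adjusted p = 0.268 and 0.357). That rise also lost it without any 1 control replicate and without exposed replicate I or III. In acetochlor 7.8 µM replicate I the fall was also at 0 and the rise at 1.3 CPM.

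Taking the 34 transcripts of these lists, 17 that rose and 17 that fell, 13 of the rises and 8 of the falls were also called in the same direction at tefluthrin 60 nM against the same controls, where 16.4% of all tested transcripts were called (8.47% higher and 7.92% lower). In the direct comparison 9 of the rises were called higher and 12 of the falls lower at 2.3 µM than at 60 nM. There 19.1% of all tested transcripts were called (9.08% higher and 10% lower). That comparison does not measure the distance from control. The fall with fractional estimates under 1 CPM, which it called, had 1.03, 2.35 and 2.54 CPM in control. At 60 nM that transcript was higher, at 3.71, 3.33 and 8.12 CPM. Against acetochlor 7.8 µM 14 of the rises and 17 of the falls were called, beside 28.4% of all tested transcripts (13.7% higher and 14.7% lower). None was called at acetochlor 7.8 µM against control with edgeR, where 0.106% of all tested transcripts were (0.1% higher and 0.00558% lower), and 0 at acetochlor 780 nM. Since these lists were chosen for their change at 2.3 µM, the counts are descriptions.

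Transcripts that were present in 1 group and practically absent in the other were collected over all 64995, with 3 counts or fewer in each library of one group and 30 or more in each of the other. In 22 transcripts the exposed libraries were the high ones, with a mean of 2.27 to 17.4 CPM, and in 25 the controls were, with 1.62 to 15.9 CPM. edgeR called 21 of the 22 and 18 of the 25, beside 29.8% of all tested transcripts, but the 47 were picked for their separation between these groups and the counts restate that choice. Whole estimates in all libraries were found in 5 of the 22 and 1 of the 25. Of the 22, 3 were high in every 60 nM library and 5 were low in every one. At least 1 acetochlor library was high in 10 of the 22. Of the 25, 6 were high and 3 low in every 60 nM library, and 15 were low in at least 1 acetochlor library.

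**Figure D4:**
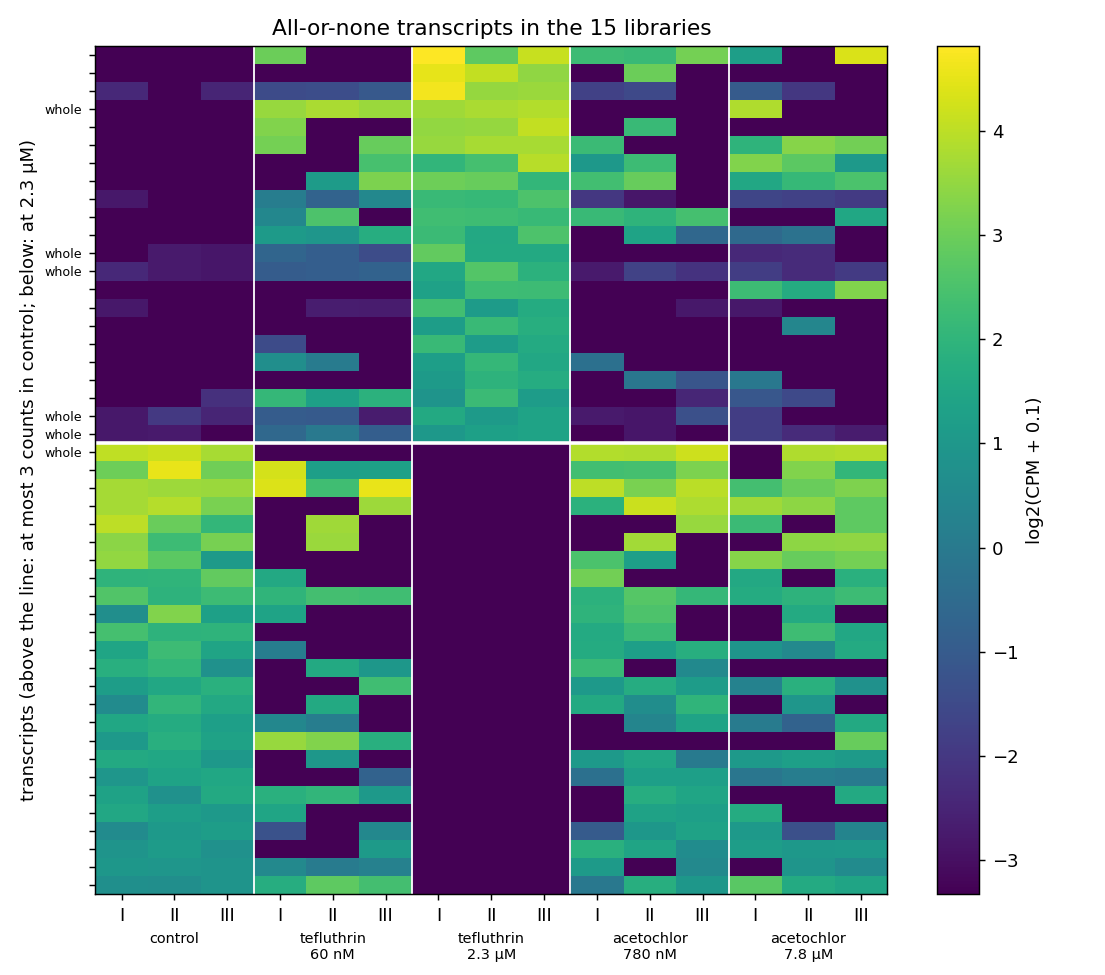
Each row is 1 of the 47 transcripts with 3 counts or fewer throughout control or tefluthrin 2.3 µM and 30 or more throughout the opposite group, each column is 1 of the 15 libraries, and colour is log2(CPM + 0.1). The rows above the white line are the 22 that were low in control, the rows below the 25 that were low at 2.3 µM, rows marked "whole" have no fractional estimate, and many other rows are mixed in the 60 nM and acetochlor libraries.

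The 5 whole-estimate transcripts that were low in control included the complementary one described above. In the other 4 the counts in libraries I, II and III were 0, 1 and 1 against 121, 49 and 52, 2, 1 and 1 against 49, 102 and 64, 1, 3 and 2 against 51, 34 and 44, and 1, 1 and 0 against 33, 39 and 44. At 60 nM these 4 had between 1 and 16 counts in each library, above 0 and under every 2.3 µM library. In the acetochlor libraries they had at most 7 counts.

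The choice of scaling changed how many transcripts counted as higher. TMM factors were 0.904, 0.910 and 0.936 in the exposed libraries and 1.01, 0.984 and 1.03 in control. When counts were divided by library totals alone, the log2 fold changes moved by a median of -0.135. Then 31.1% of transcripts were called, 3765 higher and 7379 lower, so that 33.8% of calls were higher in place of 48.5%. With RLE, the median-ratio scaling of DESeq2, 5385 were higher and 5300 lower (50.4%). Upper quartile scaling gave 4772 higher and 6023 lower (44.2%), with 30.1% of transcripts called.

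The classes in the middle changed sides. At 10 to 100 CPM 52.6% of calls were higher with TMM and 54.6% with RLE, but 48% with upper quartile and 36.2% with library totals. At 100 to 1000 CPM 64.1% became 48.5% with library totals. The classes under 10 CPM were mostly lower under each of the 5 scalings, with at most 43.2% of calls higher (under 1 CPM, limma voom, whole estimates alone and classes cut on all 15 libraries gave more higher than lower calls), and the class of 1000 CPM or more mostly higher, with at least 64.4%. The rise of this share from class to class, from 1 to 10 CPM upward, was found in 17 of 18 alternatives. The exception was the fit to transcripts with whole estimates only, in which 61.8% of calls were higher at 100 to 1000 CPM and 57.1% at 1000 CPM or more, where 12 were higher and 9 lower. The alternatives reuse the same libraries, and a scaling moves all transcripts by nearly the same amount, so these are not independent checks. With the fold minimum the highest class held only 7 higher and 2 lower calls.

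**Figure D5:**
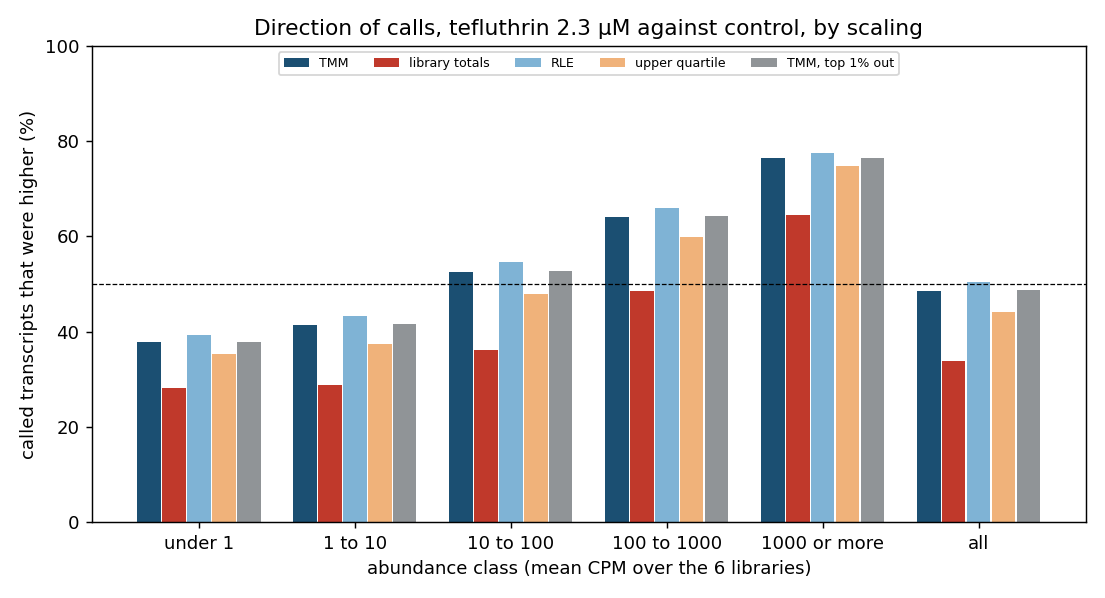
Bars give the percentage of called transcripts that were higher at tefluthrin 2.3 µM (vertical axis) in each abundance class and over all classes (horizontal axis) under 5 scalings, and the dashed line marks equal numbers in both directions. All 5 scalings rise from the lowest class to the highest, while library totals (red) lie under the others in every class.

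Calls that did not depend on this choice were counted next. Under all 5 scalings 9065 transcripts (25.3%) were called in the same direction, 3765 higher and 5300 lower. They held 72.7% of the TMM calls that were higher and 96.2% of those that were lower. The 3765 were all the higher calls with library totals, and the 5300 were all the lower calls with RLE. The same was true class by class. The percentages follow from where TMM lies among the scalings, nearer to RLE than to library totals. They do not show that lower calls are more robust than higher ones. The 1416 higher calls that were lost with library totals had a median log2 fold change of 0.42 with TMM. Of the calls shared by all 5 scalings, 56 of 79 were higher at 1000 CPM or more (70.9%). At 100 to 1000 CPM 325 of 558 were higher (58.2%), and at 1 to 10 CPM 1332 of 3742 (35.6%).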

How the data were processed

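Poly(A)-selected RNA of pooled whole larvae was sequenced, per the labels' protocols. The submitters' processing notes name FastQC, MultiQC, Salmon 1.6.0 and the build GRCz11. The authors deposited estimated counts per Ensembl transcript, not scaled for depth. The annotation release is not given in the sources used here. Estimates were rounded to whole numbers, and an estimate was taken as whole within 5e-04.

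Low counts were removed with the edgeR function filterByExpr, and at least 99.83% of each library's counts stayed. After TMM scaling, 1 quasi-likelihood model of group was fitted over all 15 libraries, with two-sided tests and Benjamini-Hochberg adjustment over 35865 transcripts. SE is the log2 fold change divided by the square root of F. R 4.3.3 was used with edgeR 4.0.16, limma 3.58.1 and DESeq2 1.42.0, and figures were drawn in Python 3.11.15 with matplotlib 3.10.9. The fits were tested on simulated data with few changed transcripts. There DESeq2 made a larger share of false calls than edgeR or limma voom and recovered more of the changes. The floor of 3 counts was 0.119 to 0.181 CPM in the 6 libraries. Floors and counting intervals (95%) cover counting error only. Pairs of replicates differed by a chi-square of 3.03 to 7.57 per degree of freedom, more than counting noise alone gives, and no library was taken for a second deposit of another. This does not show that the pools were separate.

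The comparison, the abundance classes and the rule for named transcripts were chosen with earlier results of these data known. The rule took called transcripts whose groups did not overlap and whose higher group had a mean of at least 10 counts. From these came the 2 with the smallest p in each direction and, per abundance class and direction, the 2 largest changes with whole estimates and the largest with fractional ones. Gene lists and cell type markers were not used, because no table paired transcripts with genes. Alternatives in scaling, filter, test, libraries and replicate block are given at the end.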

Additional observations from a re-analysis of the deposited data

Results flagged for a closer look

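The 34 transcripts picked by the rule above were compared directly between tefluthrin 2.3 µM and tefluthrin 60 nM. Of these, 21 differed in the edgeR comparison at an adjusted p under 0.05. Of all tested transcripts 19.1% were called in that comparison. The values are log2 differences, 2.3 µM over 60 nM, and the transcripts had been chosen for their change at 2.3 µM.

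Of those that rose, ENSDART00000099528.4 differed by 0.576. At 1000 CPM or more the differences were 0.804 and 0.676 with whole estimates and 0.825 with fractional estimates. At 100 to 1000 CPM they were 1.97 and 1.21 with whole estimates and 6.7 with fractional estimates. The rise with fractional estimates at 10 to 100 CPM differed by 2.95, and the second with whole estimates at 1 to 10 CPM by 3.37. All 9 were thus further from control at the higher concentration.

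Of those that fell, ENSDART00000113097.4 differed by -1.24 and ENSDART00000105427.4 by -0.537. At 1000 CPM or more the whole-estimate falls differed by -0.909 and -0.711. At 100 to 1000 CPM the leading falls differed by -2.63 with whole and -2.86 with fractional estimates, and at 10 to 100 CPM the whole-estimate falls differed by -2.65 and -1.56. In the lower classes the second whole-estimate falls differed by -1.52 at 1 to 10 CPM and -4.53 under 1 CPM. The fitted differences of -10.3 and -9.68 for the fractional falls of those classes depend on the prior count, since all 2.3 µM libraries were at 0, and give no size.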

How the results depend on the processing

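Counts of calls within 1.5 times the reported count, and class medians within 1 SD between libraries, were taken as close. Of 144 recomputed counts and medians, over 18 alternatives and the classes cut on all 15 libraries, 113 were close. That tolerance also takes in the 3765 higher and 7379 lower calls with library totals, although the share higher moved from 48.5% to 33.8%. Of 594 recomputed values of the named transcripts 572 kept direction and call, with 0 reversed. An alternative in which such a transcript was not tested or had no adjusted p gave no value and is not counted. The cause of the moves below was not tested, except that a fold minimum and the use of whole estimates alone leave fewer transcripts to call.

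With a minimum log2 change of 1 in size, 3468 were called (1825 higher and 1643 lower), and that minimum dropped 3 named transcripts at 1000 CPM or more. With whole estimates only, 3737 of 7618 were called (1885 higher and 1852 lower), and class medians were -0.0135 under 1 CPM, -0.0274 at 1 to 10 CPM and 0.121 at 1000 CPM or more. Library totals gave class medians of -0.218, -0.186, -0.115, -0.0117 and 0.117 from the lowest class up. Upper quartile scaling gave -0.118, -0.0858, -0.015 and 0.0878 in the 4 lower classes. At 10 to 100 CPM the median was 0.034 with RLE, 0.0346 with DESeq2 and 0.0319 with the stricter filter. Under 1 CPM it was 0 with no filter and -0.231 with the stricter filter. Classes cut on all 15 libraries, chosen after seeing the data, gave -0.0121 under 1 CPM, 0.00108 at 10 to 100 CPM and 0.0916 at 100 to 1000 CPM.

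Leaving out 1 replicate at a time gave 8545 to 9320 calls, 4132 to 4634 higher and 4354 to 4792 lower. In these fits 37086 to 37381 transcripts passed the filter, against 35865 in the main fit. Class medians then ran from -0.096 to 0 under 1 CPM, -0.0616 to -0.0303 at 1 to 10 CPM and 0.022 to 0.03 at 10 to 100 CPM. Under 1 CPM the median was -0.00496 without control replicate I, -0.0338 without II and 0 without III.

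Replicate numbers gave little sign of pairing: deviations of same-numbered control and exposed libraries correlated at -0.0152, 0.035 and 0.0456 over 11736 transcripts. Libraries with different numbers correlated at -0.0519 to 0.0201, so that 0.035 and 0.0456 were above all of these, though small. With a replicate block 9963 were called, 4862 higher and 5101 lower. More were higher than lower with DESeq2 (6134 against 6062 of 12196), limma voom (5331 against 4983 of 10314) and a fit to only the 6 libraries (5287 against 5065 of 10352). The same held with the stricter filter (5685 against 5672 of 11357) and without control replicate III (4634 against 4622 of 9256). It also held with RLE, the fold minimum and whole estimates only, as given above. On simulated data DESeq2 made more false calls than edgeR but also recovered more of the changes, and limma voom made no false call. The simulation changed few transcripts, equally in both directions, with spreads taken from an edgeR fit. It therefore cannot judge which of these directions is right. The smallest change called was a log2 of 0.799 under 1 CPM, 0.252 at 1 to 10 CPM, 0.149 at 10 to 100 CPM, 0.153 at 100 to 1000 CPM and 0.213 at 1000 CPM or more. The part of depth in this was not tested.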
